A study of Rattus rattus with 10 samples.

Results

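The cytosolic ribosomal protein genes encode the proteins that, together with ribosomal RNA, form the ribosomes of the cytoplasm. On rat testis arrays they were taken as every probe set whose only annotated symbol is Rpl or Rps followed by a number, with an optional letter and a second number, or is Rplp0, Rplp1, Rplp2 or Rpsa. The probe set with the highest mean signal over the 10 arrays stood for each symbol. The rule gave 47 genes of the 14217 genes that had a probe set with a single symbol. They were 29 large subunit genes, 13 small subunit genes and 5 like genes, whose symbols mark them as relatives of a ribosomal protein gene (Rpl3l, Rpl7l1, Rpl26l1, Rpl39l1 and Rps27l). Of the 47 genes, 43 passed the filter on low signal and were tested.

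RNA was taken from the testes of 60-day-old male Long-Evans rats, and the organism field of the labels reads Rattus rattus. Each rat had been given a single intraperitoneal dose of gamendazole at 6 mg/kg, of lonidamine at 25 mg/kg, or of buffered DMSO as the vehicle. Each treatment had 1 array at 4 h, 1 at 12 h and 1 at 24 h, and the vehicle had 1 further array at 0 h, so no treatment was repeated at an hour. The number of animals behind an array is not given in the sources used here. Both drugs are indazole carboxylic acids studied as male contraceptive agents, and they disturb the hold of developing sperm cells on Sertoli cells. Relative to lonidamine, gamendazole carries an added trifluoromethyl group and an acrylic acid in place of the carboxylic acid. The doses differ, so values for the drugs are set side by side as dosed.

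The arrays read whole testis, a mixture of germ cells, Sertoli cells, Leydig cells and others. The sum over 8 of 8 spermatid markers, among them the protamines Prm1 and Prm2 and the transition proteins Tnp1 and Tnp2, was 233890 to 248962 units of signal on the 4 vehicle arrays. Of the 9 lists of cell markers, none had a matched gene under the floor of 37.1 units on every array of a treatment. In RNA of a whole organ, fewer cells of a type and less RNA per cell cannot be told apart. All arrays had been scaled to a common trimmed mean of 500.2 units, so a change in total RNA per testis would not be seen. By the instrument records the arrays fell into 3 runs, and the gamendazole array of 4 h was the only treated array run apart from the vehicle array of its hour.

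A ribosome consists of a small subunit, which reads the messenger RNA, and a large subunit, which joins amino acids and lets the new chain out through a tunnel. Cells make the ribosomal proteins in matched amounts, and their messenger RNAs start with a terminal oligopyrimidine tract (TOP), through which mTOR and the binding protein Larp1 set how strongly they are translated. Because that control acts largely on translation, the level of the messenger RNA alone does not report it. In the testis, dividing spermatogonia and growing spermatocytes build ribosomes, and spermatids go on translating stored messenger RNAs after transcription has stopped. In mouse, a like gene of Rpl39 named Rpl39l is expressed mainly in male germ cells.

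With the vehicle alone the ribosomal protein genes varied little from array to array. Over the 4 vehicle arrays the coefficient of variation of a gene had a median of 4.45% among the 43 tested genes, from 1.41% for Rps27l to 18.6% for Rpl39. It was 3.96% among 865 other tested probe sets whose mean signal lay in the same range (from 4774 to 18010 units, the 10th to 90th percentile of the ribosomal protein genes), called the probe sets of equal brightness below. Over all 17549 tested probe sets it was 11.7%. The summed signal of the 43 genes made up 2.04% ± 0.028 (SD over the 3 hours) of all signal with the vehicle, 2.02% ± 0.042 with gamendazole and 1.96% ± 0.031 with lonidamine. The 3 lonidamine arrays, at 1.92% to 1.98%, lay below every vehicle array of 4 to 24 h, at 2.02% to 2.07%, while the gamendazole arrays, at 1.98% to 2.06%, overlapped them.

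**Figure D1:**
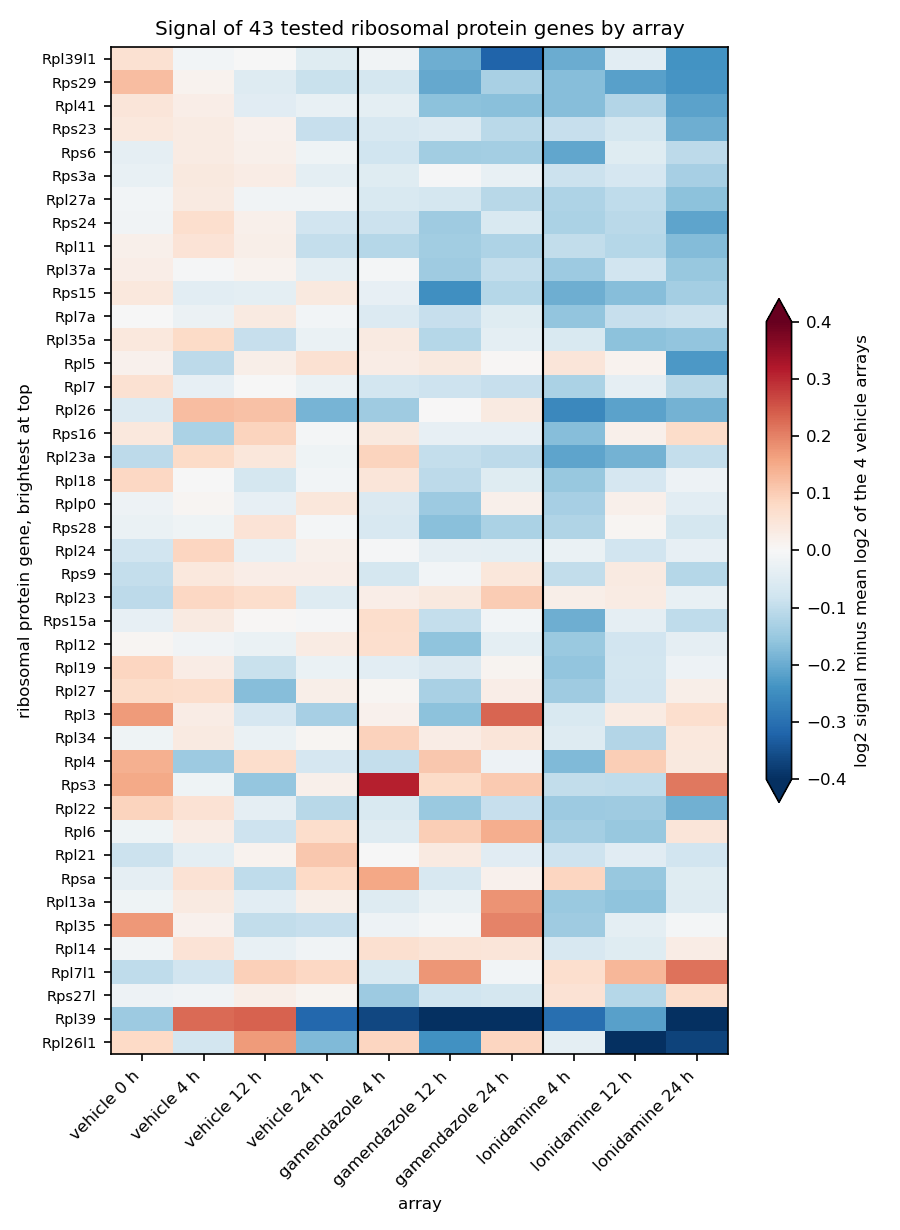
Log2 signal of each of the 43 tested ribosomal protein genes (rows, brightest at the top) on each of the 10 arrays (columns), as the difference from the mean log2 signal of the 4 vehicle arrays, with colour clipped at 0.4 to either side. Most cells are pale; the lonidamine columns are blue in most rows, Rps3 is red on the gamendazole array of 4 h, and Rpl39 is blue on all 6 treated arrays. With quantile or cyclic loess normalization, more genes lie above 0 than below it for gamendazole.

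The first question was whether gamendazole changed the messenger RNAs of the ribosomal proteins. None of the 43 tested genes passed the test: limma called 0 higher and 0 lower at a Benjamini-Hochberg adjusted p of 0.05, in a fit of treatment and hour on the 9 arrays taken after the dose. In the same fit 3.48% of all 17549 tested probe sets were called higher and 0.473% lower. With no replicates, the hours take their place here, and an effect that differs between hours counts as spread. At an unadjusted p under 0.05, 7 of the 43 genes (16.3%) lay lower and 1 (2.33%) higher. Among the 865 probe sets of equal brightness these shares were 38.6% and 4.97%, and among all tested probe sets 9.03% and 11%. The median log2 difference between gamendazole and vehicle was -0.04 over the 43 genes, with 29 below 0, against -0.11 over the probe sets of equal brightness and -0.03 over all tested probe sets, and it turned to 0.05 and 0.06 after quantile and cyclic loess normalization.

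The precision of the arrays bounds what could have been missed. The median standard error of a gene was 0.054 on the log2 scale, and its 95% interval reached 0.12 to either side, against 0.40 for all tested probe sets. For 39 of the 43 genes the whole interval of the gamendazole difference lay within 1.25-fold, and for 41 within 1.5-fold. The 4 genes whose interval reached beyond 1.25-fold were Rpl26l1, Rpl39, Rps27l and Rps3. These intervals hold for the scaling of the deposited values, and they take the hours as replicates.

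The 5 genes that lay lowest with gamendazole were Rpl39, Rpl39l1, Rps6, Rps28 and Rpl11. Rpl39 encodes a small protein in the wall of the exit tunnel. Its signal was 260, 336.4, 338.5 and 231.5 on the vehicle arrays of 0, 4, 12 and 24 h, and 223.7, 132.6 and 196.7 on the gamendazole arrays of 4, 12 and 24 h. Each gamendazole array read lower than every vehicle array, and the lowest came at 12 h. Averaged over the hours the log2 difference was -0.73 ± 0.27 (SE), or -39.5%, at an adjusted p of 0.177 by limma. Its mean signal of 232.3 units lay far below that of most ribosomal protein genes and below the range of the probe sets of equal brightness. Rpl39 also had the widest spread among the vehicle arrays, and its interval, from -1.34 to -0.11, was the only one in this comparison that reached beyond 2-fold.

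Rpl39l1 carries the symbol of a like gene of Rpl39, and the annotation used here does not say how it relates to mouse Rpl39l. On the vehicle arrays it read 26166, 24869, 25065 and 24259 in order of hour. On the gamendazole arrays it read 24860, 21883 and 20072. The gamendazole array of 4 h matched its vehicle array, and those of 12 and 24 h lay below all vehicle arrays. The mean log2 difference was -0.16 ± 0.06 (adjusted p = 0.196), and it was -0.23 (adjusted p = 0.0182) without the 4 h arrays, where the call turned, as it did without the gamendazole array of 4 h alone (-0.25, adjusted p = 0.0187). Rps15, a small subunit gene named after its values were seen, turned in the same way, from -0.12 (adjusted p = 0.252) to -0.18 without the 4 h arrays (adjusted p = 0.0483) and without that array alone (adjusted p = 0.0369). Over all 24 settings the adjusted p was 0.0182 to 0.883 for Rpl39l1 and 0.0369 to 0.973 for Rps15, and the log2 differences were -0.25 to -0.02 and -0.18 to 0.00.

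Rps6 is the small subunit protein that the S6 kinases phosphorylate downstream of mTOR. It read 18503, 19382, 19222 and 18715 with the vehicle, and 17952, 17226 and 17243 with gamendazole. The groups did not overlap, yet the difference was small, at -0.13 ± 0.05 or -8.55% (adjusted p = 0.176). Rps28, a small subunit protein near the exit of the messenger RNA, differed by -0.13 ± 0.05 (adjusted p = 0.210). Rpl11, which with Rpl5 can bind and hold back Mdm2, the ligase that degrades p53, differed by -0.12 ± 0.04 (adjusted p = 0.159). Rpl5 itself, its partner, differed by 0.03 ± 0.07, and its gamendazole arrays (13095, 13185 and 12861) lay within the range of the vehicle arrays (11935 to 13385). With quantile or cyclic loess normalization none of these 3 genes was called.

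The 5 genes that lay highest with gamendazole were Rps3, Rpl35, Rpl3, Rpl6 and Rpl34. Rps3 lines the channel through which the messenger RNA enters, and it also acts as a partner of NF-kB in human cells. Its signal was 8126, 7216, 6562 and 7418 with the vehicle and 9068, 7708 and 7853 with gamendazole. The gamendazole arrays lay above the 3 vehicle arrays of 4 to 24 h, while the vehicle array of 0 h lay among them. The log2 difference of 0.21 ± 0.08, or 16%, was not called (adjusted p = 0.181). It was called at 0.31 (adjusted p = 0.0349) when each array was centred on the probe sets of equal brightness, a setting that raised the median of all tested probe sets from -0.03 to 0.07. Over all 24 settings its adjusted p was 0.0349 to 0.646 and its difference 0.12 to 0.31.

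Rpl35, a protein at the rim of the exit tunnel, differed by 0.11 ± 0.07 with gamendazole (adjusted p = 0.420). Its highest array, at 5665, was that of 24 h, and the vehicle array of 0 h stood close to it at 5570. Rpl3, which lies near the centre where peptide bonds form, differed by 0.09 ± 0.09, with gamendazole arrays from 7750 to 10194 around vehicle arrays from 7918 to 9778. Its other probe set, far dimmer at a mean signal of 191.4, differed by -0.03 with gamendazole. Rpl6 differed by 0.06 ± 0.06 and Rpl34 by 0.05 ± 0.05. For these 4 genes the treated and vehicle arrays of 4 to 24 h did not separate completely, except that of Rpl34 every gamendazole array exceeded the vehicle array of its own hour.

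**Figure D2:**
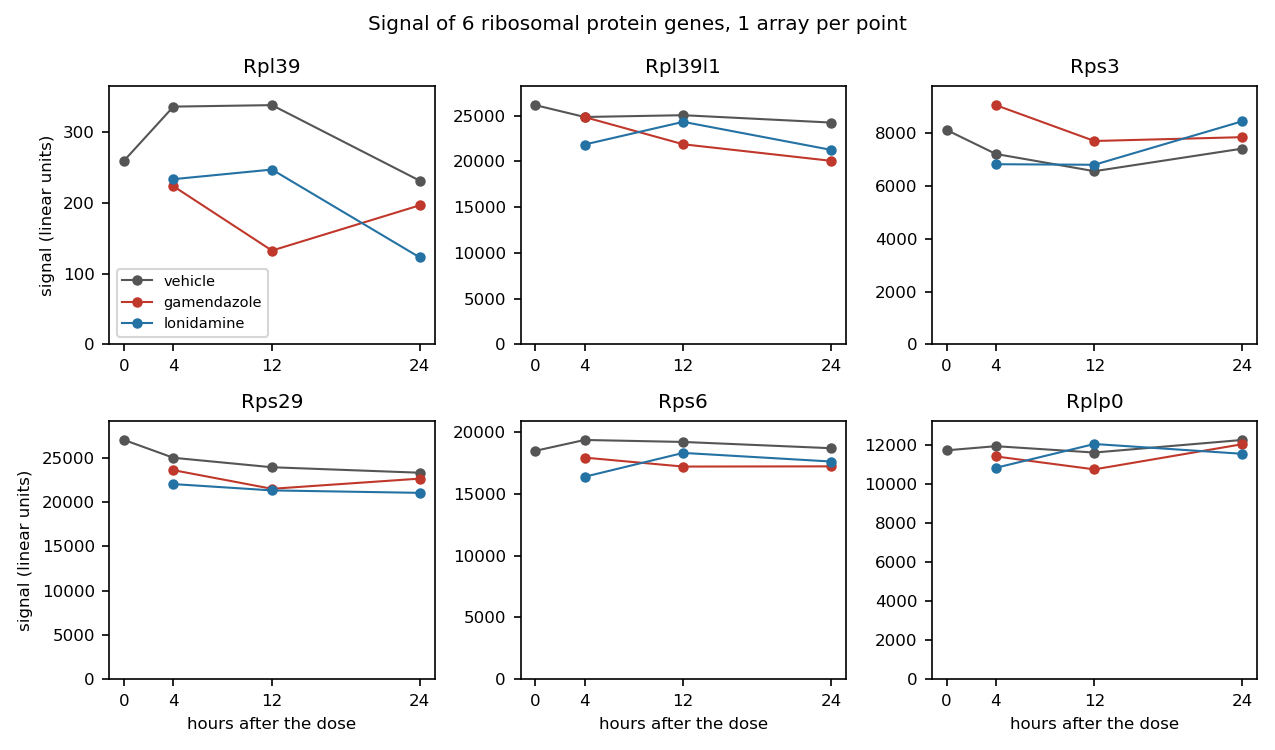
Deposited linear signal of Rpl39, Rpl39l1, Rps3, Rps29, Rps6 and Rplp0 (vertical axes from 0, a scale of its own for each gene) against hours after the dose, with 1 array per point, so that no error can be drawn. For Rpl39 the vehicle arrays of 4 and 12 h stand above the rest, and for the other genes the vehicle, gamendazole and lonidamine lines lie closer together for their level.

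The same question was asked of lonidamine. With this drug limma called 0 of the 43 genes higher and 0 lower, where 0.769% of all tested probe sets were called higher and 0.0114% lower. At an unadjusted p under 0.05, 17 of the 43 genes (39.5%) lay lower and 0 higher. Among the 865 probe sets of equal brightness 22.9% lay lower and 2.89% higher, and among all tested probe sets 4.75% and 7.99%. The median log2 difference was -0.09 over the ribosomal protein genes, with 39 of 43 below 0, and it was -0.09 over the probe sets of equal brightness and -0.01 over all tested probe sets. After quantile normalization 22 of the 43 genes lay below 0 and after cyclic loess 23, with medians of -0.0015 and -0.0016. The interval of the difference lay within 1.25-fold for 38 of 43 genes and within 1.5-fold for 41.

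The smallest adjusted p of any ribosomal protein gene in either comparison belonged to Rps29 with lonidamine. Rps29 is a zinc-binding protein of the small subunit head. It read 27053, 25036, 23966 and 23347 on the vehicle arrays in order of hour, and 22060, 21346 and 21069 on the lonidamine arrays. All 3 lonidamine arrays lay below all 4 vehicle arrays, while the vehicle arrays themselves spanned 23347 to 27053. The log2 difference was -0.17 ± 0.04 or -10.9% (adjusted p = 0.0950). With gamendazole it was -0.09 ± 0.04, with arrays of 23637, 21528 and 22678, of which the highest lay above the lowest vehicle array.

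The 5 genes that lay lowest with lonidamine were Rpl39, Rpl26l1, Rpl26, Rpl23a and Rps29. Rpl39 read 233.7, 247.3 and 122.9, with only the array of 24 h clearly below the vehicle range of 231.5 to 338.5, and differed by -0.63 ± 0.27 (adjusted p = 0.377). Rpl26, a large subunit protein that in human cells also binds p53 messenger RNA, read 10767, 11093 and 11275 against 11313 to 14019 with the vehicle. Its difference was -0.24 ± 0.08 (adjusted p = 0.253), and the vehicle array of 24 h, at 11313, stood close to the highest lonidamine array. Rpl23a, a protein at the tunnel exit where the signal recognition particle docks, differed by -0.20 ± 0.06 (adjusted p = 0.191), with lonidamine arrays of 10773, 10932 and 11654 against 11584 to 13152 with the vehicle.

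Among the genes that lay highest with lonidamine, the differences were small and none was called. Rpl7l1, a nucleolar relative of Rpl7, differed by 0.11 ± 0.09 and Rpl3 by 0.07 ± 0.09. Rps3 differed by 0.05 ± 0.08, with arrays of 6827, 6806 and 8455 on both sides of the vehicle mean. Rpl4, which reaches into the exit tunnel, differed by 0.03 ± 0.05. Rpl41, the shortest ribosomal protein, lay at the other end, at -0.15 ± 0.04 (adjusted p = 0.182), and Rps23, a protein of the decoding centre, at -0.11 ± 0.04 (adjusted p = 0.285).

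Rplp0, the base of the stalk that recruits translation factors, differed by -0.07 ± 0.06 with gamendazole and -0.06 ± 0.06 with lonidamine. Its arrays spanned 11630 to 12276 with the vehicle, 10766 to 12058 with gamendazole and 10847 to 12069 with lonidamine, so the groups overlapped. Rpsa, the small subunit protein also known as a laminin receptor precursor, differed by 0.02 ± 0.06 and -0.05 ± 0.06. Its other 2 probe sets gave 0.01 and 0.08 with gamendazole and -0.06 and 0.01 with lonidamine. Rpl13a, which in human macrophages leaves the ribosome to silence inflammatory messenger RNAs, differed by 0.03 ± 0.06 and -0.13 ± 0.06, with lonidamine arrays of 5014, 4975 and 5364 below the vehicle range of 5403 to 5701. Rpl22, a large subunit protein best known for its role in T cell development in mouse, differed by -0.07 ± 0.05 and -0.13 ± 0.05. Its lonidamine arrays (6298, 6316 and 6098) lay below the vehicle range of 6456 to 7411. Rpl7 differed by -0.06 ± 0.04 with gamendazole and -0.07 ± 0.04 with lonidamine. Its gamendazole arrays (12183, 12107 and 12026) and lonidamine arrays (11735, 12509 and 11864) all lay below the vehicle arrays (12528 to 13388). The other probe set of Rpl7, at a mean signal of 376.1, gave -0.15 and -0.03. None of these 5 genes was called in either comparison.

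Counted without a test, 8 of the 43 genes (18.6%) had all 3 gamendazole arrays below the 3 vehicle arrays of 4, 12 and 24 h, and 1 gene, Rps3, had all 3 above. Over all tested probe sets those shares were 12.2% and 11.9%, and among the probe sets of equal brightness 33.3% and 4.74%. The 8 were Rpl39, Rps27l, Rps28, Rpl7, Rpl7a, Rpl11, Rpl27a and Rps6, of which Rpl7a and Rpl27a are named after their values were seen. With lonidamine 18 of the 43 genes (41.9%) lay below in this way and 0 above, against 9.88% and 9.32% of all tested probe sets and 37.9% and 2.20% of those of equal brightness. With both drugs the share that lay below exceeded that of all tested probe sets. Set against the probe sets of equal brightness, it was lower with gamendazole and near theirs with lonidamine. Both comparisons use the same vehicle arrays.

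Hour by hour the differences stayed small. With gamendazole the median log2 difference from the vehicle array of that hour was -0.04 at 4 h, -0.08 at 12 h and -0.03 at 24 h. The probe sets of equal brightness gave -0.04, -0.13 and -0.16, so at 24 h their median lay further below 0 than that of the ribosomal protein genes. With lonidamine the medians of the ribosomal protein genes were -0.14, -0.07 and -0.08, and those of the probe sets of equal brightness -0.08, -0.07 and -0.12. The 6 pairs of vehicle arrays gave medians from -0.04 to 0.01 for the ribosomal protein genes, so the gamendazole median of 4 h and that of 24 h lay within or at the edge of the range between vehicle arrays. The lonidamine median of 4 h lay furthest from it, and these medians have no test.

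The share of genes below the vehicle array at all 3 hours was 37.2% with gamendazole (16 of 43) and 58.1% with lonidamine (25 of 43). Over all tested probe sets it was 21.7% and 19%, and among the probe sets of equal brightness 51.6% and 60.1%. At a threshold of 1.5-fold at a single hour, 0 genes stood higher at any hour. With gamendazole 1 gene stood lower at 4 h and 1 at 12 h, both times Rpl39 (log2 -0.59 and -1.35). With lonidamine Rpl26l1 stood lower at 12 h (-0.63) and Rpl39 at 24 h (-0.91). Of the 865 probe sets of equal brightness 2, 11 and 9 stood higher with gamendazole at 4, 12 and 24 h, and 0, 2 and 4 lower. With lonidamine 0, 4 and 10 of them stood higher, and 0, 0 and 2 lower. Of all 17549 tested probe sets 1484, 2362 and 2583 stood higher with gamendazole, and 1389, 1501 and 1305 lower. With lonidamine 1262, 1679 and 2187 stood higher, and 954, 1132 and 1356 lower.

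**Figure D3:**
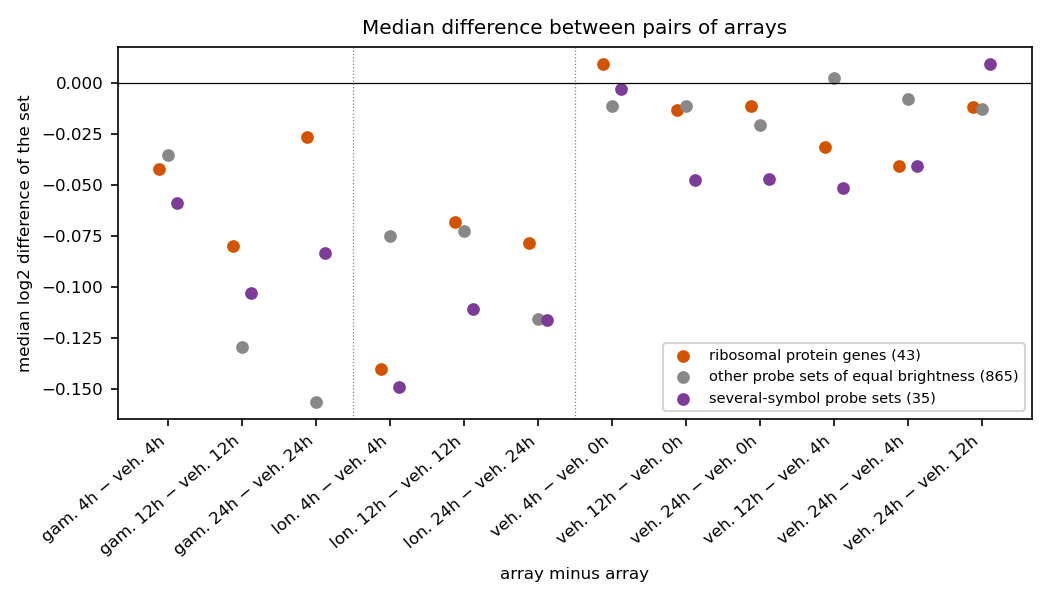
Median log2 difference between pairs of single arrays for the 43 ribosomal protein genes, the 865 other probe sets of equal brightness and the 35 tested probe sets with several symbols, for each drug against the same-hour vehicle array and for the 6 pairs of vehicle arrays. Treated pairs lie below 0 for all sets on the deposited scale, the sign being opposite for the gamendazole median over the hours with quantile or cyclic loess normalization.

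Set side by side, gamendazole against lonidamine gave 0 calls among the 43 genes in either direction by limma, and 0% of all 17549 tested probe sets were called higher and 0% lower. At an unadjusted p under 0.05, 3 of the 43 genes (6.98%) lay higher with gamendazole than with lonidamine and 0 lower. Among the 865 probe sets of equal brightness 0.925% lay higher and 1.97% lower. Among all tested probe sets these shares were 2.23% and 2.19% (392 and 384). Those 3 genes were Rpl13a (0.15 ± 0.06), Rpl26 (0.19 ± 0.08) and Rpl6 (0.14 ± 0.06), each at an adjusted p of 0.985. The median log2 difference was 0.05, with 37 of 43 genes above 0, and it was -0.02 over the probe sets of equal brightness and -0.01 over all tested probe sets. The 95% interval of the difference lay within 1.25-fold for 38 genes and within 2-fold for all 43. The doses differed, so these are differences between the drugs as given.

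The brighter ribosomal protein genes lay further below the vehicle than the dimmer ones on the deposited scale. With gamendazole the median log2 difference was 0.03 for the 15 dimmest genes, -0.04 for the 14 in the middle and -0.09 for the 14 brightest. With lonidamine it was -0.05, -0.07 and -0.13. Other probe sets showed the same order: with gamendazole their median was 0.01 below 385 units of mean signal, -0.05 from 1059 to 3014 units and -0.13 above 14840 units, and with lonidamine 0.01, -0.03 and -0.12. After quantile normalization the 3 groups of ribosomal protein genes gave 0.09, 0.06 and 0.03 with gamendazole, and after cyclic loess 0.10, 0.06 and 0.04, all with the opposite sign to most of the deposited values. With lonidamine the medians after either normalization lay between -0.01 and 0.03.

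Compared with probe sets as bright, the ribosomal protein genes lay higher with gamendazole and level with lonidamine. With gamendazole 37 of 43 genes lay above the median of the probe sets of equal brightness, and the medians differed by 0.073. Over all 24 other settings this difference of medians was 0.022 to 0.099. The lowest value came without the 24 h arrays and the highest without the 4 h arrays. With lonidamine 22 of 43 genes lay above that median, and the difference of medians was 0.00 as reported and -0.027 to 0.023 over the settings. The match was loose: on the vehicle array of 4 h the median signal was 11164 for the genes and 7989 for the probe sets of equal brightness. Bins of mean signal ran from 3015 to 5549, 5556 to 9194, 9212 to 14830 and above 14840 units. There the gamendazole medians were 0.05, 0.02, -0.05 and -0.10 for the genes and -0.09, -0.11, -0.12 and -0.13 for other probe sets. With lonidamine they were -0.03, -0.05, -0.07 and -0.13 against -0.05, -0.08, -0.10 and -0.12. No test was made of these differences of medians.

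**Figure D4:**
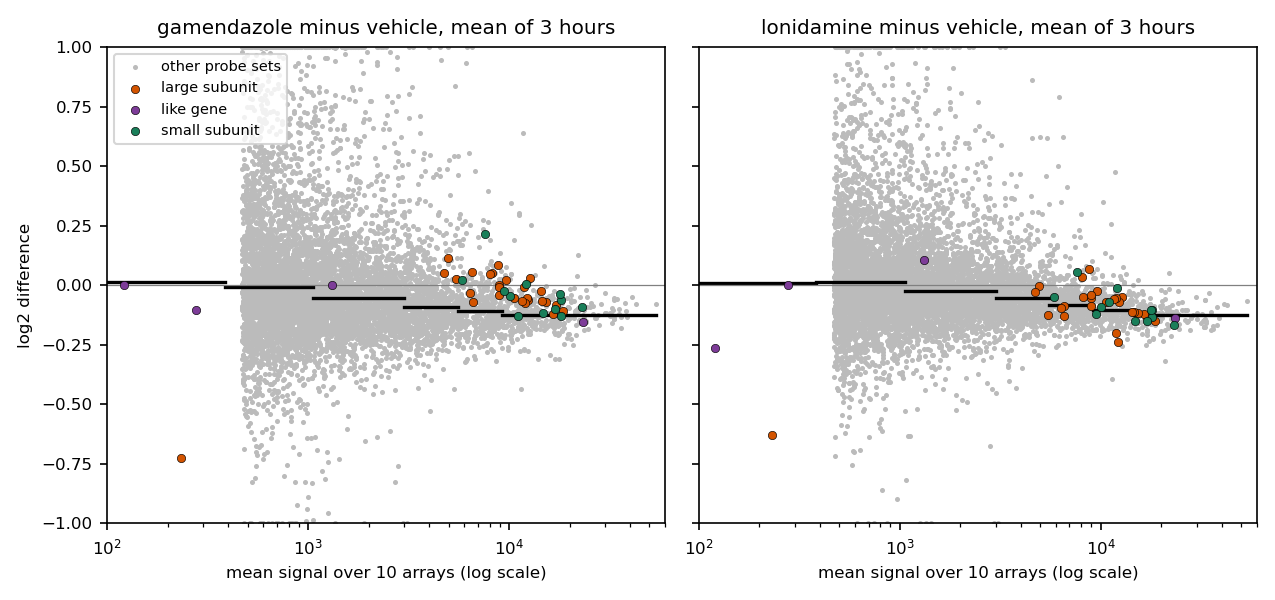
Log2 difference from the vehicle, averaged over 3 hours on the deposited scale, against mean signal over 10 arrays (log axis) for the tested ribosomal protein genes, coloured by class, and for other probe sets with a mean signal from the 75th percentile of all values up (grey, clipped at 1 to either side). Black bars give the median of all other tested probe sets in bins of signal; they sink below 0 toward the right, and more of the coloured points lie above the bars with gamendazole than with lonidamine.

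Large and small subunit genes gave like medians, whose difference was not tested. With gamendazole the median log2 difference was -0.03 over 27 large subunit genes and -0.05 over 12 small subunit genes, with 18 and 9 of them below 0, while over all 43 genes the median turned above 0 with quantile or cyclic loess normalization. With lonidamine it was -0.09 and -0.11, with 25 and 11 below 0. The 4 tested like genes gave -0.05 and -0.07.

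The like genes were read beside the genes they resemble. Rpl26l1 read 113 to 143.9 with the vehicle, 108 to 135.6 with gamendazole and 93.2 to 124.3 with lonidamine, close to the filter at 116.2 units. Its differences, 0.00 ± 0.27 and -0.26 ± 0.27, had wide intervals, from -0.61 to 0.61 and from -0.87 to 0.35. Rps27l, a p53 target in human cells, had the tightest vehicle arrays of all, at 278.7 to 287. All gamendazole arrays lay below them (255.4, 267.2 and 268.8), and lonidamine arrays lay on both sides (261.2 to 296.9). Its differences were -0.11 ± 0.15 (adjusted p = 0.753) and 0.00 ± 0.15, with a standard error that the fit draws in part from other probe sets of like signal.

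Rpl7l1 read 1182 to 1354 with the vehicle, 1214 to 1431 with gamendazole and 1327 to 1473 with lonidamine, and stood above the vehicle array at all 3 hours with lonidamine. Its other probe set gave 0.02 with gamendazole and 0.24 with lonidamine (adjusted p = 0.379), the same direction as the brighter one. Rpl3l, the striated muscle relative of Rpl3, was at or under the floor of 37.1 units on all 10 arrays, with a mean signal of 8.61. It was the only member so low throughout, and it was not tested.

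The other 3 untested genes were Rpl28, Rpl30 and Rps13, whose single-symbol probe sets read on average 35.9, 35.8 and 41.1 units. On the vehicle arrays Rpl28 ranged from 6.5 to 57.5, Rpl30 from 18.2 to 70.1 and Rps13 from 37.4 to 53.4, so no order of the groups could be read. A further 36 probe sets carried several symbols of which 1 or more fits the pattern. They are not members and stay unnamed, and 35 of them were tested. Their median log2 difference was -0.08 with gamendazole and -0.11 with lonidamine, and 1 of the 35 was called lower with gamendazole. Rplp1, Rplp2, Rps14, Rps19, Rps27a, Rps4x, Rpl10l and Rpl22l1 are not analysed here.

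Around the ribosome, lists of related genes held few calls. All calls in these lists were made with gamendazole and were higher, where 3.48% of all tested probe sets were called higher. Lonidamine called none of these genes. At an unadjusted p under 0.05, where 12.7% of all tested probe sets passed with lonidamine, it had 5 of 47 biogenesis, 3 of 33 initiation, 3 of 13 further TOP, 3 of 23 mTOR, 1 of 9 MYC, 1 of 3 p53 and 6 of 70 mitochondrial ribosomal protein genes. Of 47 ribosome biogenesis genes 1 was called, the nucleolar protein nucleolin (Ncl), with a median log2 difference of 0.07 over the list. Of 33 translation initiation genes 1 was called, the helicase Eif4a1, with a median of -0.02. Of 13 further TOP messenger RNAs 1 was called, vimentin (Vim), an intermediate filament protein of Sertoli and other somatic cells, with a median of -0.11. The 5 elongation factor genes on that list ranged with gamendazole from -0.15 ± 0.05 for Eef1g to -0.06 ± 0.04 for Eef1a1, with Eef2 at -0.12 ± 0.05, and none of them was called (adjusted p from 0.139 to 0.472).

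Ncl read 2398, 2409, 2260 and 2379 with the vehicle, 2845, 3588 and 3040 with gamendazole and 2990, 2799 and 3301 with lonidamine. No treated array overlapped a vehicle array. It rose 1.34-fold with gamendazole (adjusted p = 0.0461), and the lonidamine difference of 0.36 was not called (adjusted p = 0.148). Eif4a1 rose 1.30-fold (adjusted p = 0.0215), from 4221 to 4575 with the vehicle to 5358 to 6123 with gamendazole, and Vim 1.48-fold (adjusted p = 0.0179). These calls depended on the setting: over 24 settings Ncl was called in 10, Eif4a1 in 13 and Vim in 13, and each difference stayed above 0. With lonidamine Eif4a1 and Vim were each called in 3 of the 24.

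Of 23 genes that control TOP messenger RNAs and mTOR, 1 was called, Rheb, the small GTPase that activates mTOR. It read 2121 to 2477 with the vehicle, 3107 to 3735 with gamendazole and 2663 to 2992 with lonidamine. It rose 1.44-fold with gamendazole (adjusted p = 0.0162) and was called in 16 of 24 settings. Of 9 tested genes of MYC and its partners, 0 were called with either drug by limma. At an unadjusted p under 0.05, 2 lay higher and 2 lower with gamendazole, where 20% of all tested probe sets passed. With lonidamine 1 lay higher. Mxi1, named after its values were seen, differed by -0.45 ± 0.11 with gamendazole (adjusted p = 0.0504 by limma) and -0.23 ± 0.11 with lonidamine. Mycn lay lowest, at -0.63 ± 0.33 and -0.35 ± 0.33, and Myc highest. Myc read 147.8, 8.5, 6.7 and 52.9 with the vehicle, 226.1, 193.5 and 91.4 with gamendazole and 90.6, 312.9 and 162 with lonidamine. The vehicle array of 0 h lay among the treated ones, and the adjusted p was 0.0560 with gamendazole and 0.109 with lonidamine.

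Of 3 tested genes by which p53 responds to free ribosomal proteins, 1 was called, the cell cycle inhibitor Cdkn1a, which rose 1.54-fold with gamendazole (adjusted p = 0.0179, called in 13 of 24 settings). Mdm2, the partner of Rpl5 and Rpl11, differed by -0.06 ± 0.05 and was not called. Of 70 mitochondrial ribosomal protein genes, which build the separate ribosomes of mitochondria, 1 was called, Mrpl17, which rose 1.59-fold (adjusted p = 0.0165, 13 of 24 settings). It read 896.1 to 1019 with the vehicle and 1246, 1419 and 1744 with gamendazole. Their median was -0.08 with gamendazole and -0.06 with lonidamine, against -0.04 and -0.09 for the cytosolic ones.

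The 9 lists of cell markers were summed on each array. The sum over 8 of 8 spermatid markers was 203796 to 229831 with gamendazole and 208630 to 228723 with lonidamine, below the vehicle range on every treated array. That over 5 of 7 spermatocyte markers was 63123 to 66717 with the vehicle, 57280 to 62498 with gamendazole and 57504 to 64885 with lonidamine. The sum over 7 of 7 macrophage and leukocyte markers was 1632 to 1788 with the vehicle, 1988 to 4158 with gamendazole and 1579 to 3903 with lonidamine. Over 2 of 3 erythrocyte markers it was 2990 to 4095, 4766 to 8664 and 4053 to 5206; of these, Hbb read higher with gamendazole by 1.04 ± 0.20 on the log2 scale, while Alas2 differed by -0.22 ± 0.15. The Sertoli sum, over 8 of 11 markers, was 20094 to 21708, 23397 to 29562 and 21868 to 27501, above the vehicle range on every treated array. Its Ctsl, a protease, read 3402 to 3799, 6020 to 11745 and 4454 to 9246, and made up most of the rise of the sum. Inhbb, on the same list, went the other way with gamendazole, at 492.2 to 510.3, 149.1 to 320.7 and 375 to 527.1. Of 6 tested Sertoli markers limma called 1 higher (Ctsl) and 1 lower (Inhbb) with gamendazole. Ctsl was also called higher with lonidamine (adjusted p = 0.0447). On the other marker lists limma called the spermatogonial Dmrt1 lower with gamendazole. It called Tagln, Hbb and S100a9 higher with that drug, S100a9 with arrays at the floor. Over all tested probe sets 3.48% were called higher and 0.473% lower with gamendazole, and 0.769% and 0.0114% with lonidamine. The peritubular and smooth muscle sum, over 5 of 5, also lay above the vehicle range on every treated array, at 1802 to 1947, 2039 to 2430 and 1985 to 2864. The spans of the other 3 sums overlapped the vehicle range with each drug. They were 8178 to 10560, 5046 to 15151 and 6130 to 8539 over 6 of 6 Leydig markers. No gamendazole array lay within the vehicle range of the Leydig sum: it was 15151 at 4 h, 7378 at 12 h and 5046 at 24 h. Over 3 of 5 spermatogonial markers the sums were 2276 to 2672, 1735 to 2512 and 1955 to 2583, and over 4 of 5 endothelial markers 427.6 to 582.4, 278.5 to 470.8 and 463.4 to 775. The ratio of the 3′ to the 5′ control probe set was 1.851 to 1.998 for beta-actin and 0.723 to 0.853 for GAPDH, highest for GAPDH on the gamendazole array of 24 h. The part of these markers, of RNA quality and of the runs in the differences of the ribosomal protein genes was not tested.

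**Figure D5:**
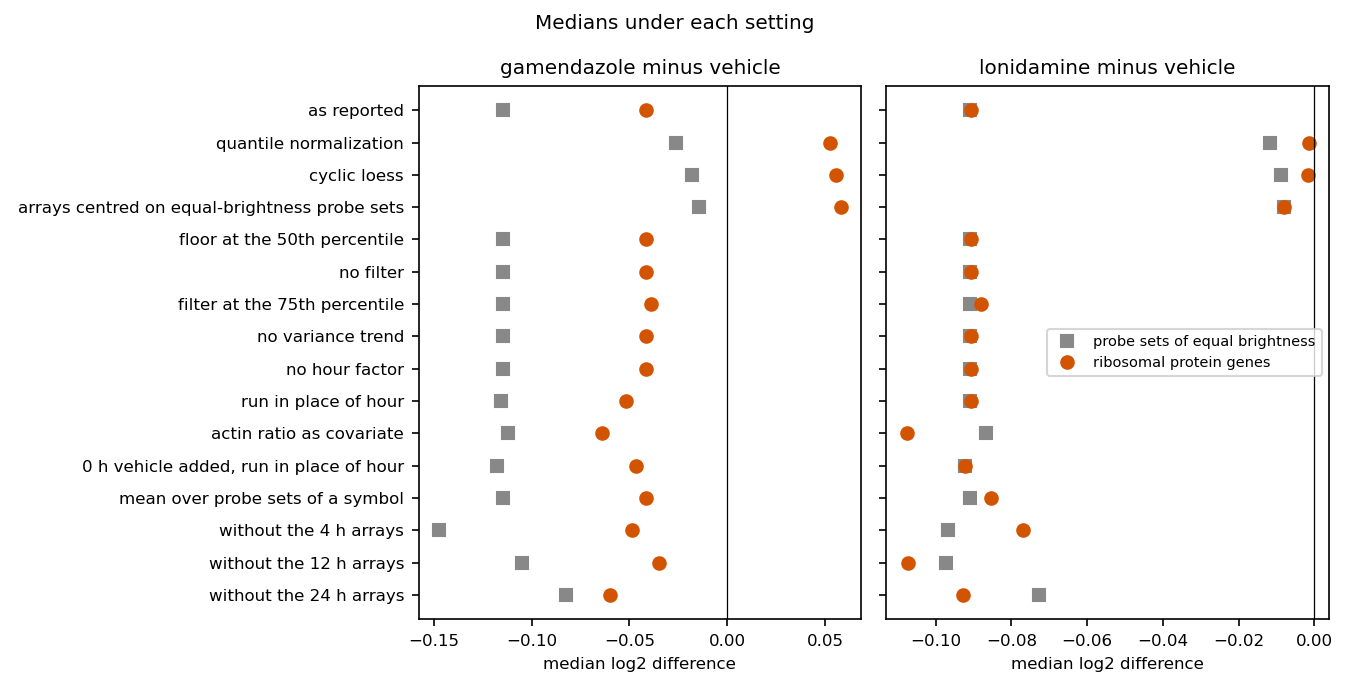
Median log2 difference from the vehicle of the ribosomal protein genes (circles) and of probe sets of equal brightness (squares), 1 row per setting. Settings that left out a single array are not drawn. For gamendazole the circles lie right of the squares in every row and cross 0 under quantile normalization, cyclic loess and centring on equal-brightness probe sets, and for lonidamine they lie near the squares.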

How the data were processed

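The deposited values are linear signal intensity per probe set from 10 Affymetrix Rat230_2 arrays, with GCOS 1.1 named in the submitters' processing notes; by the values, the authors' arrays share 1 trimmed mean (2% trimmed at each end). Here 57 control probe sets were left out of 31099, signals were raised to a floor at the 25th percentile of all values (37.1) and put on the log2 scale. A probe set was tested if at least 2 arrays reached the median of all values (116.2), which left 17549, tested with limma 3.58.1 in R 4.3.3: treatment and hour as factors, 9 arrays, 4 residual degrees of freedom, a variance trend, and Benjamini-Hochberg adjustment over all tested probe sets at 0.05. Gene names came from the platform annotation, where 20826 probe sets had 1 symbol, 436 several and 9780 were not listed. The members and gene lists were chosen with earlier results of these data known. The text names the 5 highest and 5 lowest genes of each comparison, the brightest and the dimmest 5, the like genes with the genes they resemble, and a set of well-studied members; other names are marked. P-values measure the spread between single arrays at different hours, which may be partly technical. Precision is limited by how many arrays there were. The alternatives were other normalizations, floors, filters, variance models, covariates and choices of probe set, and leaving out hours or arrays. The fit was tested on simulated data.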

Additional observations from a re-analysis of the deposited data

Results flagged for a closer look

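Of the 43 tested genes, 2 had a vehicle array far from the other 3. For Rpl27a, a large subunit gene named after its values were seen, the vehicle array of 4 h read 18269, while the other vehicle arrays read 17653 to 17687, and its gap was 0.943 of the whole range. For Rps9, a small subunit gene named in the same way, the vehicle array of 0 h read 9568 against 10422 to 10524, a gap of 0.897 of the range. Chance alone marks about 1 in 20 groups in this way. The 0 h array was not in the fit, so the tested difference of Rps9 does not rest on it.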

How the results depend on the processing

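Over 24 settings the calls of the 43 genes against the vehicle made 2058 comparisons with the reported ones, of which 2053 kept their side of the threshold and their direction where called, 5 gained a call and 0 lost one or reversed; 215 differences that were never called changed sign. The gained calls were Rps3 higher with gamendazole, so that the count of genes called higher went from 0 to 1 when arrays were centred on probe sets of equal brightness, and Rpl39l1 and Rps15 lower with gamendazole, so that the count called lower was 2 without the 4 h arrays and without the gamendazole array of 4 h (range 0 to 2 over the arrays left out). With the several-symbol probe sets added, an alternative chosen after seeing the data, 1 of 78 was called lower with gamendazole. The gamendazole median turned from -0.0417 to 0.0527 with quantile normalization, 0.0556 with cyclic loess and 0.0582 with centring on probe sets of equal brightness. The lonidamine median of -0.0907 moved to -0.00148, -0.00159 and -0.00798 under the same 3 settings. Quantile normalization and cyclic loess take out differences shared by probe sets of like brightness by construction. Centring shifts all probe sets of an array alike, by the level of the probe sets of equal brightness. With it the gamendazole gap between the genes and those probe sets stayed at 0.073. Leaving out an hour or an array gave medians of -0.0602 to -0.0234 with gamendazole, -0.118 to -0.0770 with lonidamine and 0.0231 to 0.0774 for gamendazole against lonidamine. Counts over all tested probe sets moved far more: of 610 called higher and 83 lower with gamendazole, 0 and 0 were called without a filter or without the 12 h arrays, 26 and 2 without the variance trend, and 1045 and 601 without the 4 h arrays; the lonidamine counts of 135 and 2 became 0 and 0, 0 and 0, 2 and 0, and 542 and 58. For these counts the cause was not tested. Arrays of the same hour were matched by the hour factor of the reported fit, and without that factor 0 of the 43 genes were called with either drug.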
